A study of Mus musculus with 14 samples.

Results

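The nuclear genes of mitochondrial complex I were followed through RNA libraries of mouse hippocampus. The members were the protein-coding genes of the count table whose symbols begin with Nduf, followed by a, ab, b, c, s or v and a number, without the Ndufaf assembly factors. The pattern selected 38 of 39017 gene IDs, and all 38 passed the filter on low counts that left 21298 genes for testing. Of these, 36 encode subunits of complex I. The other 2 are Ndufa4, now placed in complex IV of the respiratory chain, and its paralog Ndufa4l2.

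Complex I (NADH:ubiquinone oxidoreductase) is the entry point of the respiratory chain: its matrix arm oxidizes NADH and hands electrons through a flavin and a row of iron-sulfur clusters to ubiquinone, and its membrane arm pumps protons with the energy released. A small core carries out this chemistry, and a larger set of accessory subunits surrounds it and is needed for assembly and stability. The core is encoded partly in the nucleus and partly in mitochondrial DNA. Parvalbumin (PV) neurons, the fast-spiking inhibitory interneurons of the hippocampus, are known for a dense supply of mitochondria.

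The libraries came from male mice of C57BL/6 background that carried a Cre-dependent EGFP-L10a allele and PV-Cre (EGFP-L10a+; PV-Cre+), so that a tagged ribosomal protein was made in cells with Cre driven from the PV gene. Translating ribosome affinity purification (TRAP) then pulled ribosome-bound RNA from homogenates of both hippocampi of 1 mouse per sample. Mice went through chronic social defeat stress (CSDS), repeated defeat by CD-1 aggressors, and were called resilient (4 libraries, R3, R5, R7 and R8) or susceptible (3 libraries, S2, S4 and S10) by their later approach to an unfamiliar CD-1 mouse. Non-defeated mice gave 4 TRAP libraries (C1, C6, C9 and C11) and 3 input libraries of total RNA from before the purification (CI12, CI13 and CI14). All mice carried both transgenes, TRAP RNA and input also differed in the kind of RNA and the immunoprecipitation, and no source said that input and TRAP RNA came from the same mice. In such bulk RNA, a larger number of cells of a type and more RNA per cell cannot be told apart.

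Total counts ranged from 64110214 to 94726962 per library. Pvalb, the gene of parvalbumin, stood at 1208 to 1600 CPM (counts scaled to normalized library size) in TRAP libraries and at no more than 31.9 in input, and all 6 markers of PV neurons rose in TRAP RNA. All 4 markers of excitatory neurons, all 4 of oligodendrocytes, all 4 of microglia and 3 of 4 of astrocytes fell in TRAP RNA against input. Of the other lists, Sst and Npy rose while Vip and Cck fell among 4 markers of other interneurons, 1 of 4 endothelial markers rose, and 1 of 3 choroid plexus and 3 of 3 blood markers fell. Blood markers were not even across the defeated groups. Summed hemoglobin RNA (Hba-a1, Hba-a2 and Hbb-bs), scaled to total counts, ranged from 91.8 to 192 CPM in non-defeated libraries. It ranged from 102 to 472 in resilient and from 731 to 977 in susceptible libraries. S10 stood apart from S2 and S4 in the members, and results that rest on it are given with and without it.

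The stretches before the transcription start are shown for Ndufa5, which rose in susceptible against resilient mice, and for Ndufv1, a core subunit whose values were lower there. Both are RefSeq sequence of GRCm38.p6, 120 bases that end at the base before the start (for Ndufa5 the outer of its starts), written in the direction of transcription, with capitals marking a match to the NRF1 motif.
Ndufa5 (chr6:24527691-24527810, minus strand): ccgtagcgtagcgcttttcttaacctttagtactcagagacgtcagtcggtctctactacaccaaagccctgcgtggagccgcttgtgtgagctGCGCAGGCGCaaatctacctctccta
Ndufv1 (chr19:4012756-4012875, minus strand): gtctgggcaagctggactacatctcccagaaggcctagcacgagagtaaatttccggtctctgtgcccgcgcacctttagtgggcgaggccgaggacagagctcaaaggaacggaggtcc

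Motifs were searched on both strands in the RefSeq promoter windows of 33 members, from 250 bases before to 50 after the start, in 35 windows against 32851 windows of all genes. NRF1, nuclear respiratory factor 1, is known for promoters of respiratory chain genes. Its motif (GCGCA, then any base, then GCGC) was in 8 of 35 member windows (22.9%) and in 4.6% of all windows. These windows belong to 7 members, since both windows of Ndufa5 hold the same match. The matches other than that of Ndufa5 are shown with 8 bases on each side, to let the near-palindromes be compared, with the motif or its reverse complement in capitals.
Ndufa11 (chr17:56717694-56717719, plus strand): tgcactgcGCGCATGCGCgcacgcct
Ndufa6 (chr15:82354251-82354276, minus strand): gtggcaccGCGCGTGCGCacgctgaa
Ndufa8 (chr2:36049351-36049376, minus strand): agagcagtGCGCTTGCGCgtcgctgg
Ndufb4 match a (chr16:37654542-37654567, minus strand): gaagcagtGCGCACGCGCagaatacg
Ndufb4 match b (chr16:37654430-37654455, minus strand): ttgtgcgcGCGCAGGCGCacttcctg
Ndufb4 match c (chr16:37654373-37654398, minus strand): tcatatccGCGCAGGCGCagatgtgc
Ndufs5 (chr4:123718267-123718292, minus strand): tgcttgctGCGCAGGCGCagacccgc
Ndufs6 (chr13:73328481-73328506, minus strand): actgctgtGCGCCTGCGCcggcactt

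The motif AAGATGGC of YY1, a factor with sites around many starts, was in 7 member windows (20%) and in 2.75% of all windows. All 7 matches lay after the start, 22 to 38 bases into the transcript. The letters hold ATG, so a match can cover a start codon, which was not told apart here. In Ndufs6 both motifs were present.
Ndufa3 (chr7:3617387-3617410, plus strand): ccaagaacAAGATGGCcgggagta
Ndufa9 (chr6:126849100-126849123, minus strand): tgtgggagAAGATGGCggccgccg
Ndufb8 (chr19:44555393-44555412, minus strand): agaaggtgAAGATGGCtgcc
Ndufc1 (chr3:51408918-51408941, minus strand): tgcggaacAAGATGGCgccgtccg
Ndufs4 (chr13:114388045-114388067, minus strand): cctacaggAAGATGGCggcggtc
Ndufs6 (chr13:73328434-73328457, minus strand): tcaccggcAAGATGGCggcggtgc
Ndufs7 (chr10:80249465-80249488, plus strand): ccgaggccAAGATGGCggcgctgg

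The other motifs were closer to their shares over all windows: CCGGAAG (ETS factors) in 11.4% against 8.86%, GGGCGG (Sp1) in 45.7% against 35.7%, CCAAT (NF-Y) in 28.6% against 37.4% and TATAAA in 14.3% against 13.6%. The NRF1 and YY1 motifs were not searched for overlap with each other, the shorter motifs can overlap them, and a match is no more than a run of letters. The other 5 members had no window in the table used.

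The first comparison asked which subunit RNAs were enriched on the tagged ribosomes. Of 38 members, 36 rose in TRAP RNA of non-defeated mice over input and none fell (edgeR quasi-likelihood test, Benjamini-Hochberg adjusted), whereas 27.4% of all genes tested rose and 27.6% fell. The median member was 2.87-fold higher (log2 1.52), and the median of all genes was -0.04. Well-expressed genes in general leaned the same way. Of 1037 genes at or above the TRAP level of the lowest complex I member, 657 rose and 144 fell. Their median was 0.51. The members together took 0.719 to 0.737% of the counts of an input library and 1.62 to 2.19% of those of a TRAP library. For 36 members every TRAP library of non-defeated mice was above every input library, a separation that 29.5% of all genes showed in this direction and 32.5% in the other. At an unadjusted p under 0.05 the members' count was also 36 higher and 0 lower, against 29.5% and 30.4% of all genes.

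**Figure D1:**
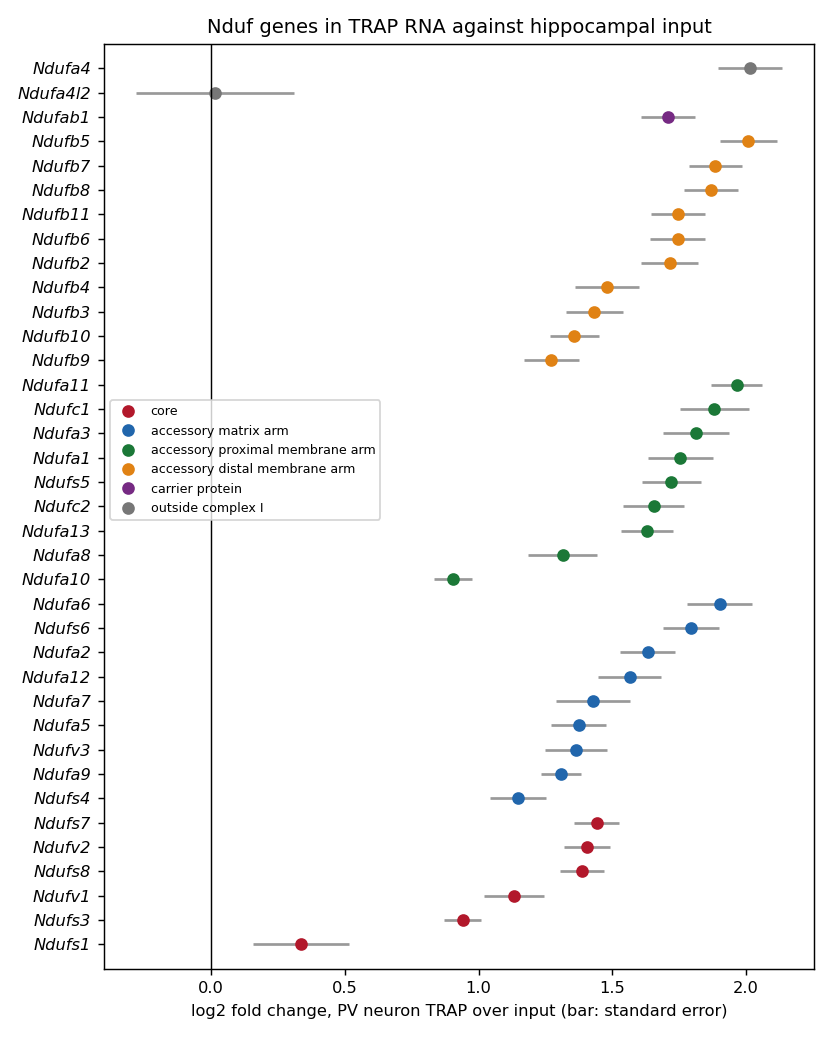
Each point is the log2 fold change of a member between 4 non-defeated TRAP and 3 input libraries, with its standard error as a bar and its role as color. Every point except those of Ndufs1 and Ndufa4l2 lies near 0.9 or higher, and the core subunits lie lower than most of the membrane arm.

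Enrichment differed among the subunits by role. The 7 nuclear core subunits had a median log2 difference of 1.13, the 9 accessory subunits of the matrix arm 1.43, the 9 of the proximal membrane arm 1.72 and the 10 of the distal membrane arm 1.73. These groups were not tested against each other. Among all genes, those with short transcripts were also higher in TRAP RNA. Their median was 0.42 for transcripts up to 1 kb, 0.16 for 1 to 2 kb and -0.19 for 2 to 4 kb. The members' medians in these bins were 1.68 (24 members), 1.38 (12) and 0.62 (2). Across 36 complex I members, Spearman's rho between transcript length and the log2 difference was -0.62, and across 20866 genes it was -0.27. Role and length were not tested apart.

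Ndufa11, a membrane arm subunit at the contacts of respiratory supercomplexes, had the smallest adjusted p of the members. Its CPM was 225, 207 and 217 in the input libraries CI12, CI13 and CI14, and 934, 905, 735 and 802 in the TRAP libraries C1, C6, C9 and C11. The lowest TRAP library was thus far above the highest input, and the log2 fold change was 1.97 (SE 0.10, adjusted p = 3.28e-09). The distal membrane arm subunits Ndufb5 (2.01, SE 0.11, adjusted p = 5.98e-09) and Ndufb7 (1.88, SE 0.10, adjusted p = 6.33e-09) followed. Ndufb5 rose from 126 ± 4.33 CPM (SD, n = 3) to 508 ± 34.8 (SD, n = 4). Its exons overlap those of Mrpl47 on the other strand, whose reads cannot be told apart in a library kit that does not mark strand. Other members overlap opposite-strand genes too. Among them are Ndufa13 with Tssk6 (375 of 1251 exon bases), Ndufs1 with Ino80dos (489 of 8086) and Ndufa11 with Vmac (70 of 1092).

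Of the complex I subunits, the core subunit Ndufs1 had the smallest difference. This largest subunit, which carries iron-sulfur clusters, was at 171, 176 and 187 CPM in input and at 170, 192, 289 and 249 in C1, C6, C9 and C11. C1 lay below all 3 input libraries and C9 far above them, so the groups overlapped. The log2 difference of 0.34 (SE 0.18) did not pass the adjusted threshold (edgeR adjusted p = 0.129), but it did without C1 (0.45, adjusted p = 0.0435) and with an offset for length and GC content (0.65, adjusted p = 0.000824). Ndufs3 rose by 0.94 on the log2 scale (SE 0.07, adjusted p = 7.82e-08) and Ndufv1, which binds NADH and flavin, by 1.13 (SE 0.11, adjusted p = 1.19e-06).

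Larger changes in the core were those of Ndufs7, Ndufs8 and Ndufv2. Ndufs7, which holds the last iron-sulfur cluster before ubiquinone, had a log2 fold change of 1.44, and the iron-sulfur proteins Ndufs8 and Ndufv2 had 1.39 and 1.41. In the membrane arm Ndufa10 stood out with 0.90 (SE 0.07, adjusted p = 1.35e-07), the smallest change of any accessory subunit. Ndufa4l2 was at 0.864 to 1.05 CPM in input and 0.743 to 1.30 in TRAP RNA, with 51 to 94 counts per library, and showed no difference beyond its spread (log2 0.02, SE 0.30, adjusted p = 0.970). Its paralog Ndufa4 rose by 2.01 (SE 0.12, adjusted p = 1.46e-08).

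Levels between genes were compared per length, as RPKM (CPM divided by the length of the principal transcript in kilobases). In non-defeated TRAP libraries Ndufa4 was highest at 2761 ± 319 RPKM (SD, n = 4). Ndufb8, a distal membrane arm subunit, followed at 1684 ± 108 and Ndufa11 at 1548 ± 169. The mean of Ndufb8 lay within 1 SD of Ndufa11, and that of Ndufa11 a little more than 1 SD of Ndufb8 below it. Ndufb8 shares exonic sequence with Gm20538 on its own strand, and per length of all its exons it ranked 18th rather than the second.

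At the other end, Ndufs4, an accessory subunit whose loss destabilizes the matrix arm, stood at 109 ± 8.09 RPKM, Ndufs1 at 86.9 ± 20.8 and Ndufa4l2 at 1.04 ± 0.27. The means of Ndufs4 and Ndufs1 differed by little more than the SD of Ndufs1. In input the order at both ends was similar, with Ndufa4 at 684 ± 10.1 RPKM, Ndufb8 at 461 ± 13.6, Ndufs1 at 68.8 ± 3.15 and Ndufs4 at 49.3 ± 1.54 (SD, n = 3).

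Processed pseudogenes took reads beside their parents. Counts of Ndufb4c were 84.8 to 89.6% of those of Ndufb4, and counts of Ndufab1-ps were 44.2 to 50.3% of those of Ndufab1, the gene of the mitochondrial acyl carrier protein, so that the levels of both parents are uncertain. Ndufs6b and Ndufa11b stayed at 2.05 to 3.32% and 1.59 to 2.62% of their parents. The lowest share of each of the 4 was in S4.

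The next comparisons asked how subunit RNA in PV neurons differed after CSDS. Resilient mice were not called different from non-defeated mice in any member (0 of 38 by the edgeR quasi-likelihood test with adjusted p, as for 0% of all genes in either direction). At an unadjusted p under 0.05, 5 members were lower and none was higher, against 2.16% and 2.22% of all genes; DESeq2 also gave no adjusted call. The count of 5 rested on single libraries. It was 0 without C1, C6, R5 or R7, 3 without R8, 8 without C11 or R3 and 14 without C9. Over all genes, 933 of 21298 passed at that level in either direction with all libraries. They numbered 687 without C1, 729 without C6, 957 without R5, 867 without R7 and 859 without R8. Without C11, R3 and C9 they numbered 1034, 1030 and 1537. The median of the members was -0.15 (log2), with 33 of 38 below 0, and that of all genes was 0.00. It was -0.0891 without C1 and -0.0532 with the summed markers of other cells as covariate. For no member were the groups apart, as they were for 1.3% of all genes upward and 1.05% downward.

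The 3 lowest by p were Ndufs6, Ndufa13 and Ndufb5. Ndufs6, a zinc-binding subunit of the matrix arm, stood at 460, 423, 343 and 380 CPM in C1, C6, C9 and C11 and at 358, 322, 342 and 355 in R3, R5, R7 and R8. The resilient libraries lay close together at the level of C9, the lowest of the non-defeated (log2 -0.22, SE 0.09, adjusted p = 1.0). Ndufa13, also known as GRIM-19, differed by -0.20 (SE 0.09) and Ndufb5 by -0.20 (SE 0.09).

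Toward higher values were Ndufa4l2 (log2 0.55, SE 0.27) and Ndufa10 (0.08, SE 0.06), both with adjusted p = 1.0. Ndufa4l2 was at 1.54, 1.11, 1.27 and 1.75 CPM in R3, R5, R7 and R8, against 1.30, 0.802, 0.743 and 1.04 in C1, C6, C9 and C11. The lowest resilient libraries lay under the highest non-defeated one, and over all 14 libraries the gene stayed between 0.743 and 2.05 CPM.

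Susceptible mice were not called different from non-defeated mice in any member either (smallest adjusted p = 0.318, edgeR; 0.0141% of all genes rose and 0.0235% fell). At an unadjusted p under 0.05, 5 members were higher, Ndufs5, Ndufa5, Ndufb3, Ndufs4 and Ndufc1, and none was lower, against 6.61% and 6.7% of all genes; DESeq2 gave 0 higher at that level and no adjusted call. The groups overlapped for every member, while 4.21% of all genes lay apart upward and 4.4% downward. The median was 0.11, with 33 of 38 above 0; it was 0.195 without S10, 0.172 without C1, 0.0579 without C9 and 0.0521 without S4. With the summed markers of other cells as covariate, 15 members rose, 28 were higher at an unadjusted p under 0.05 and the median was 0.294. That fit called 1839 of 20762 genes in either direction by adjusted p and 5820 by unadjusted p. The markers include the hemoglobin genes, whose sum set the susceptible libraries apart from all other TRAP libraries. Covariate and group are thus not independent, and these values are no cleaner measure of the difference. Among the members below 0 were Ndufs1 (-0.31, SE 0.18), Ndufv1 (-0.18, SE 0.11), Ndufa9 (-0.15, SE 0.07) and, at 0.00 after rounding, Ndufs8.

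The 3 susceptible libraries were unlike each other. In S2 and S4, 33 and 34 of 38 members were above their non-defeated mean, with library medians of 0.20 and 0.25 (log2), and in S10 only 6 were, with a median of -0.08. Non-defeated libraries were split in the same manner: 33 members were above the mean in C1 and in C6, 5 in C9 and 9 in C11. Resilient libraries had 4 to 12 above it, and medians from -0.21 to -0.03. Without S10, 17 members were higher than in non-defeated mice at an unadjusted p under 0.05, in a fit where 3845 of 21687 genes passed in either direction (2835 of 21298 with all libraries). Without C1 or C6 9 and 8 were, without S4 1 was, and without C9, C11 or S2 none was. Over all genes, 3988, 2958 and 2835 passed in either direction without C1, C6 and S4. Without C9, C11 and S2, 1897, 1941 and 2001 did.

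**Figure D2:**
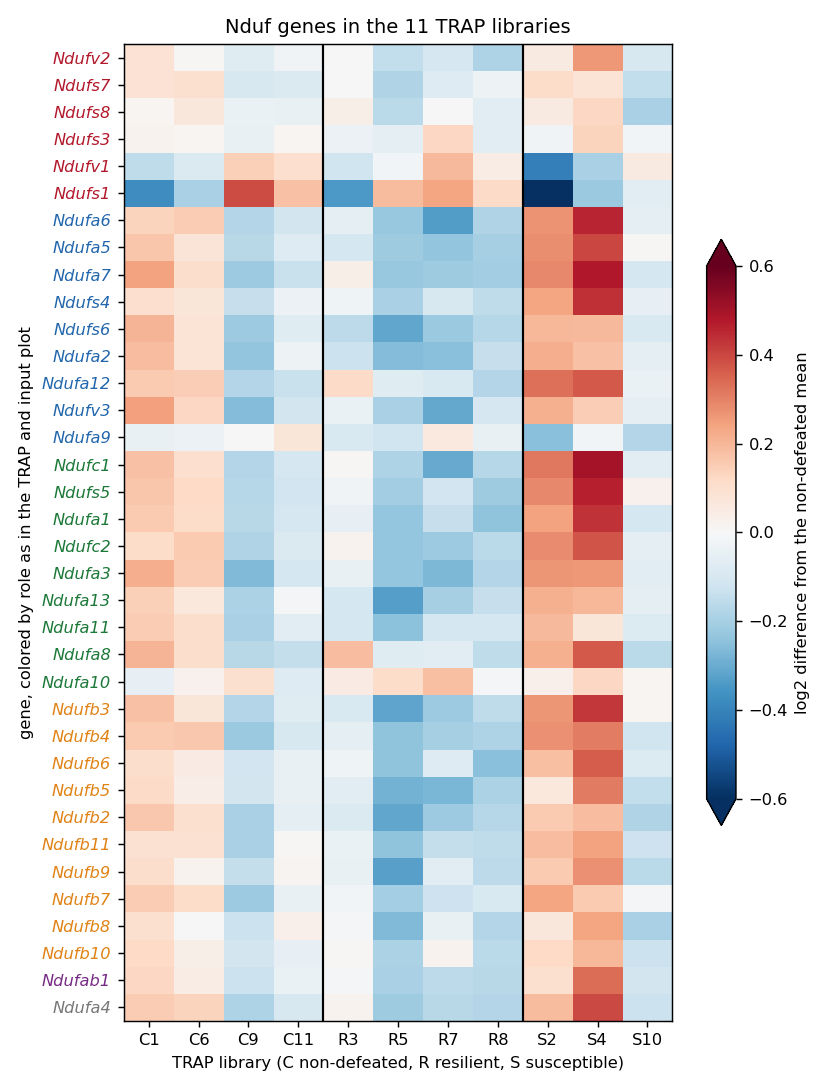
Color gives the log2 difference of each library from the non-defeated mean, for 36 members in rows (Ndufa4l2, near 1 CPM, is left out) and the 11 TRAP libraries in columns. C1, C6, S2 and S4 are mostly above that mean (red) and the resilient libraries mostly below it (blue), while Ndufs1 and Ndufv1 at the foot of the core run the other way in C1, C6, S2 and S4.

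The difference between the outcomes of defeat was the larger one. Ndufa5 and Ndufb3 rose in susceptible against resilient mice and no member fell (edgeR quasi-likelihood test, adjusted p under 0.05), against 1.02% of all genes that rose and 0.873% that fell. At an unadjusted p under 0.05, 26 of 38 members were higher and none lower, against 10.8% and 10.1% of all genes. The members varied together, so such counts are not counts of independent results. Within the TRAP groups, the correlation of a complex I member with the mean of the others had a median of 0.919 (11 libraries). It ran from -0.734 for Ndufs1 to 0.987 for Ndufa1. The median log2 difference of the members was 0.26 (0.364 without S10), with 32 of 38 above 0, and the median of all genes was 0.00. For 9 members all 3 susceptible libraries lay above all 4 resilient ones, a separation shown by 7.71% of all genes, with 7.44% in the other direction: Ndufa2, Ndufa5, Ndufa6, Ndufa11, Ndufa13, Ndufb3, Ndufb7, Ndufs5 and Ndufs6.

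Ndufa5 (ENSMUSG00000023089, chr6:24518666-24528013, minus strand, GRCm38), an accessory subunit of the matrix arm near the ubiquinone-reducing module, was at 404, 375, 369 and 379 CPM in R3, R5, R7 and R8 and at 528, 575 and 438 in S2, S4 and S10. S10 was the lowest of its group and still above every resilient library. The log2 fold change was 0.43 (SE 0.10, adjusted p = 0.0447), or 1.34-fold. The non-defeated libraries C1, C6, C9 and C11, at 488, 459, 387 and 413 CPM, spanned the range between the groups and overlapped both.

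Ndufb3 (ENSMUSG00000026032, chr1:58586384-58595964, plus strand, GRCm38), a small subunit of the distal membrane arm, was at 315, 270, 288 and 302 CPM in R3, R5, R7 and R8 and at 404, 451 and 339 in S2, S4 and S10. The groups did not overlap, and the log2 fold change was 0.44 (SE 0.10, adjusted p = 0.0468), or 1.35-fold. Against non-defeated mice Ndufb3 was -0.20 (SE 0.10) in resilient and 0.24 (SE 0.10) in susceptible mice, and Ndufa5 was -0.19 (SE 0.09) and 0.23 (SE 0.10). Both differences share the non-defeated libraries, and neither passed the test.

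Both calls were close to the threshold. Ndufa5 and Ndufb3 lost them in 6 of 7 fits that left out 1 library (adjusted p up to 0.161 and 0.162) and kept them without S10, when 22 members rose. Calls over all genes also went up in that fit, to 1058 of 21687 in either direction from 403 of 21298. With only the 2 groups in the model none was called. The 26 members higher at an unadjusted p under 0.05 became 11 without S4, 16 without S2 and 29 without S10. Genes passing at that level in either direction were 4461 with all libraries, and 4107, 3192 and 5214 in the same order.

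Other accessory subunits came near. Ndufs5, a subunit on the intermembrane face of the proximal arm, was at 629, 552, 589 and 551 CPM in R3, R5, R7 and R8 and at 778, 883 and 650 in S2, S4 and S10, without overlap (log2 0.41, SE 0.10, adjusted p = 0.0586). Ndufa6 of the matrix arm had 0.43 (SE 0.11, adjusted p = 0.0641) and Ndufc1 of the proximal membrane arm 0.43 (SE 0.12, adjusted p = 0.0746).

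**Figure D3:**
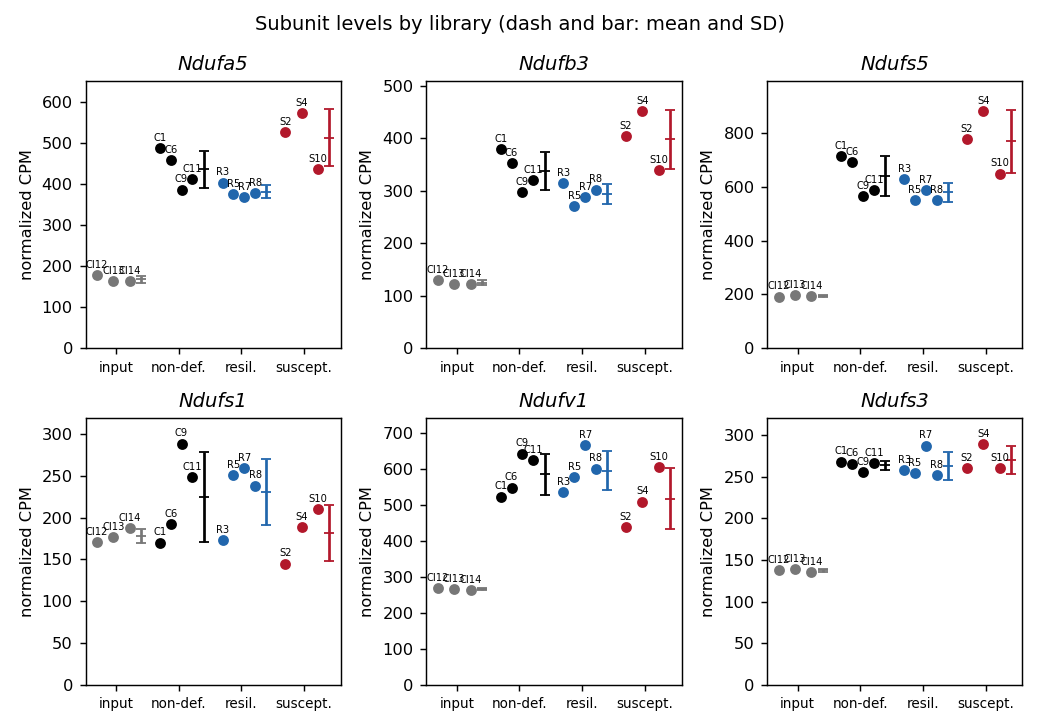
Normalized CPM of 6 members is plotted for each of the 14 libraries by group, each axis starting at 0, with the mean (dash) and SD (bar) of the group. For Ndufa5, Ndufb3 and Ndufs5 the susceptible libraries lie above all resilient ones, for Ndufs1 and Ndufv1 they overlap and sit lower on average, and Ndufs3 is near 264 CPM in every TRAP group.

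By role, the members above the resilient level were mainly accessory. At an unadjusted p under 0.05, 8 of 9 accessory subunits of the matrix arm were higher, with a median of 0.32 (log2), as were 7 of 9 of the proximal membrane arm (0.34) and 8 of 10 of the distal membrane arm (0.26). Of the 7 core subunits 1 was, Ndufv2 (0.19, SE 0.08, adjusted p = 0.208), with a core median of 0.04. Ndufab1 (0.25) and Ndufa4 (0.30) were also higher at that level. The roles were not tested against each other.

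The core subunits Ndufs1 and Ndufv1 had the lowest values. Ndufs1 was at 174, 251, 260 and 238 CPM in R3, R5, R7 and R8 and at 145, 189 and 210 in S2, S4 and S10 (log2 -0.35, SE 0.18, adjusted p = 0.291). R3 lay below S4 and S10, so the groups overlapped. Ndufv1 differed by -0.20 (SE 0.11, adjusted p = 0.307).

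Ndufs1 and Ndufv1 were high where the accessory subunits were low. Ndufs1 was at its 3 highest in C9 (289 CPM), R7 (260) and R5 (251) and at its lowest in S2 (145) and C1 (170), whereas Ndufa5 was at its highest in S4, S2 and C1. Ndufv1 was at 524, 548, 643 and 625 CPM in C1, C6, C9 and C11 and at 438, 509 and 605 in S2, S4 and S10. For Ndufv1, C9 and C11 were thus above C1 and C6, and S10 above S2 and S4, the reverse of Ndufa5.

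Of the other core subunits, Ndufs3, Ndufs7 and Ndufs8 stayed close to their non-defeated levels. Ndufs3, which stands between the flavin and ubiquinone ends of the matrix arm, was at 264 ± 5.47 CPM in non-defeated (SD, n = 4), 263 ± 16.4 in resilient (SD, n = 4) and 270 ± 16.7 in susceptible mice (SD, n = 3). Ndufs8 stood at 420 ± 15.5, 406 ± 24.3 and 420 ± 47.0, and Ndufs7 at 668 ± 49.0, 635 ± 34.1 and 675 ± 64.9 CPM. None of their differences between TRAP groups passed the adjusted test, and their log2 values lay between -0.07 and 0.09. Accessory subunits with values below 0 between outcomes were Ndufa9, at the junction of both arms (-0.10, SE 0.07), and Ndufa10 (-0.03, SE 0.07).

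Transcript length moved with these differences. Across 36 complex I members, Spearman's rho between transcript length and the log2 difference of susceptible over resilient mice was -0.47, and across 20866 genes it was -0.19; genes are not independent replicates. Among transcripts up to 1 kb, 20.3% of all genes and 18 of 24 members were higher at an unadjusted p under 0.05, with medians of 0.175 and 0.305. From 1 to 2 kb these shares were 10.8% of genes and 8 of 12 members, with medians of 0.05 and 0.26. Ndufs1 and Ndufa10, the members over 2 kb, were below 0 as was the median of genes from 2 to 4 kb (-0.08).

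**Figure D4:**
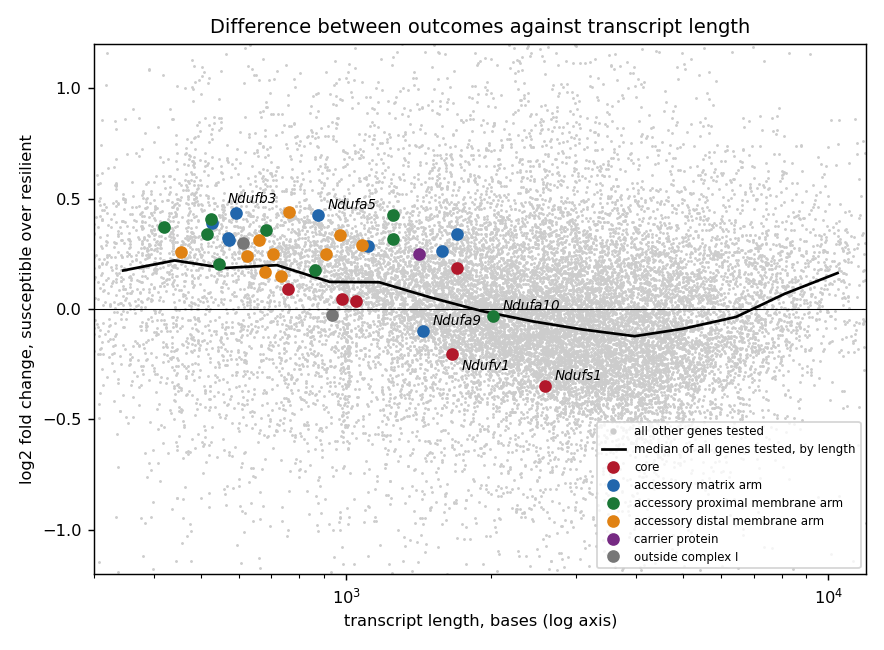
The log2 fold change of susceptible over resilient mice is drawn against transcript length on a log axis, for members (colored by role) and all other genes tested (gray, within the axis limits), with the running median of all genes as a line. Most members lie above the line, and the core subunits Ndufs1 and Ndufv1 are among those well below it.

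With an offset for length and GC content in the model, the median member difference between outcomes was 0.22, 19 members were higher and 2 lower at an unadjusted p under 0.05, and none passed the adjusted test. In the same fit 4047 of 21298 genes passed at an unadjusted p under 0.05 in either direction and 203 by adjusted p. The offset took the length of all exons of a gene, which for Ndufs1 is 8086 bases against 2590 for its principal transcript. It thus did not adjust for the transcript length used above. Of 1037 genes at or above the level of the lowest complex I member, without the offset, 214 were higher and 200 lower at an unadjusted p under 0.05, and their median was -0.01. The share of length in the difference was not tested further.

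The order of library numbers was unevenly filled. Libraries numbered 1 to 6 held 2 of each TRAP group, and those numbered 7 to 11 held 2 non-defeated, 2 resilient and 1 susceptible; what the number stands for is not given in the sources used here. Within numbers 1 to 6 the median member difference of susceptible over resilient was 0.36, with Ndufa5 at 0.50 and Ndufb3 at 0.55. Within 7 to 11 it was 0.07, with Ndufa5 at 0.23 and Ndufb3 at 0.20, resting on S10 alone. Resilient against non-defeated medians were -0.24 and -0.04, and susceptible against non-defeated medians 0.11 and 0.02. The split of the non-defeated and susceptible libraries followed the number. Library medians were 0.08 to 0.25 in C1, C6, S2 and S4, and -0.17 to -0.05 in C9, C11 and S10. Resilient libraries of both ranges had -0.21 to -0.03. Without S10 the susceptible libraries came only from numbers 1 to 6, and the resilient ones from both ranges.

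Some markers listed for cells other than PV neurons moved with the outcome as well. All 3 hemoglobin genes rose in susceptible against resilient mice (Hba-a1 by 1.76 on the log2 scale, edgeR adjusted p = 0.0411), and Hba-a1 and Hba-a2 also against non-defeated mice. Choroid plexus markers (Ttr, Folr1 and Kl) summed to 392 to 674 CPM in susceptible, 153 to 414 in resilient and 176 to 291 in non-defeated libraries, and none of the 3 passed the adjusted test. The 4 markers of endothelium summed to 7.65 to 12.9, 4.04 to 17.8 and 3.27 to 5.58 CPM in the same order, so that these were near the lowest levels measured. Among the 4 markers of other interneurons, Sst (log2 0.65), Npy (0.48), Cck (0.31) and Vip (0.09) were all above 0 in susceptible over resilient mice, with a median of 0.39. Only Cck was higher at an unadjusted p under 0.05, and none of the 4 passed the adjusted test. Sst and Npy were themselves enriched in TRAP RNA over input (log2 1.61 and 2.79), unlike Vip (-2.29) and Cck (-0.82). Their RNA may thus come partly from the purified cells, which was not tested. Against non-defeated mice the median of these 4 was 0.44, and 3 were higher at an unadjusted p under 0.05. With the summed markers of other cells as covariate, 29 members rose between outcomes and the median was 0.38, while calls over all genes reached 2892 of 20762 in either direction. These markers include the hemoglobin genes, Sst and Npy, so the covariate is not independent of the outcome. The part of these cells in the members' differences was not tested further. PV markers did not pass the test in any comparison between TRAP groups.

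Promoter motifs were set beside the same difference. The 13 members with an NRF1 or YY1 motif in their window had a median log2 difference between outcomes of 0.34 (from -0.10 to 0.43), and 20 members with a window that held neither had 0.26 (from -0.20 to 0.44). Ndufb3, with the largest value, was among the latter. The ranges covered each other.

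The rest of complex I and its makers were read from lists of 15 assembly factors and 7 mitochondrially encoded subunits. Against input, 13 of 15 assembly factors rose in TRAP RNA and none fell (edgeR, adjusted), while 27.4% of all genes rose and 27.6% fell. Their median log2 difference was 0.72, smaller than that of the subunits. Ndufaf2, a chaperone that binds late intermediates of the complex, was highest at 2.05 (adjusted p = 9.18e-09). Acad9 (0.22) and Tmem186 (0.12) did not pass. All 7 mitochondrially encoded subunits fell, with a median of -4.15, from 390 to 19.4 CPM for mt-Nd1.

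Between outcomes, Ndufaf2 was the 1 assembly factor that rose in susceptible mice (log2 0.46, edgeR adjusted p = 0.0468), from a mean of 62.9 to 87.3 CPM. At an unadjusted p under 0.05, Ndufaf2 and Ndufaf8 were higher and Acad9 and Ecsit lower, and the median of the list was 0.11. The mitochondrially encoded subunits had a median of 1.01, with 4 of 7 higher at an unadjusted p under 0.05 and none past the adjusted test (smallest adjusted p = 0.0941, mt-Nd6). Over all genes 10.8% were higher and 10.1% lower at the unadjusted level, and by adjusted p 1.02% rose and 0.873% fell. These RNAs were what remained after a strong loss against input. The mean of mt-Nd3 was 37.5 CPM in input, and 1.23 in non-defeated, 0.694 in resilient and 1.28 in susceptible TRAP libraries. Whether this RNA came from PV neurons was not tested. No gene of either list passed the adjusted test in resilient or susceptible against non-defeated mice; the medians were -0.01 and 0.02 for assembly factors and -0.60 and 0.34 for mitochondrially encoded subunits.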

How the data were processed

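RNA was measured in 11 TRAP and 3 input libraries. The authors deposited raw counts per gene, after adapter trimming (fastp) and alignment by STAR to the mm10 build. The submitters' processing notes name STAR 2.5.3a and HTSeq, whereas the published methods name another STAR version. The count settings and annotation are not given in the sources used here. The libraries were made with SMART-Seq v4 and Nextera XT kits. Samples were grouped by their labels, and every count column was used.

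IDs were matched to GENCODE mouse release 21 (GRCm38), which named 37607 of 39017. All 14 libraries were fitted in 1 model by group in R 4.3.3 with edgeR 4.0.16: default filter on low counts, TMM normalization, 2-sided quasi-likelihood tests, and Benjamini-Hochberg adjustment over all 21298 genes tested, with a threshold of 0.05. The scripts were tested on simulated data. Values of members and of Pvalb are normalized CPM, mean and SD. Sums of markers and the CPM of assembly factors and mitochondrially encoded subunits were scaled to total counts, without TMM factors. Log2 values per library used a prior count of 2. RPKM used the shortest principal transcript. Counting error is small for all members but Ndufa4l2, since the lowest of their other counts was 6113.

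Full statistics are given for members past the adjusted threshold between TRAP groups, the 3 with the smallest p in each direction of each comparison, the 3 highest and 3 lowest by RPKM in non-defeated TRAP and the core subunits. The values of 1 member are not reported here, although it stays in the counts and medians. The members, roles and lists were chosen with earlier results of these data known. Alternatives were DESeq2 1.42.0, likelihood ratio tests, other size factors and filters, fewer groups, covariates, an offset for length and GC content, and leaving out each library.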

Additional observations from a re-analysis of the deposited data

Results flagged for a closer look

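In groups of 4 libraries, the lowest or highest library's gap to its nearest neighbor was set against the whole range of the group. The ratio was above Dixon's critical value for 4 samples in 3 of 74 member and group pairs, and chance gives about 1 in 20. All 3 were in resilient mice. Ndufa11 in R5 was at 709 CPM against 780 to 781 in the others (ratio 0.991), and Ndufa7 in R3 was at 350 against 292 to 296 (0.928). R7 was high for Ndufs3, at 287 against 252 to 258 (0.84).

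The differences of the 2 outcomes from non-defeated mice were set against each other, which is the same test as susceptible against resilient mice and adds nothing to it. The value was 0.427 for Ndufa5 (edgeR adjusted p = 0.0447) and 0.438 for Ndufb3 (edgeR adjusted p = 0.0468) on the log2 scale, and both calls were lost in 6 of 7 fits that left out 1 library.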

How the results depend on the processing

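No paired analysis was run. Whether input and TRAP RNA came from the same mice was not given, and the library numbers, which never repeat, do not tell. The enrichment of the members in TRAP RNA was stable: 36 to 37 rose in each alternative, with medians from 1.43 to 1.58, although the offset for length and GC content moved the median of all genes from -0.04 to 0.09. Ndufs1 passed the adjusted test without C1 and with that offset. Between TRAP groups the median of the members kept its sign in every setting, but its size moved (without 1 library, -0.194 to -0.0891 in resilient and 0.0521 to 0.195 in susceptible against non-defeated mice, and 0.201 to 0.364 between outcomes; 0.0621 with the length and GC offset and 0.0689 with the library number in susceptible against non-defeated mice), and many counts of calls did not hold; the count of 0 adjusted calls in resilient against non-defeated mice did.

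For members lower in resilient than in non-defeated mice at an unadjusted p under 0.05 (5), the count was 2 with the likelihood ratio test, 1 without a filter, 3 with only the groups compared, 1 with TRAP libraries only, 20 with the library number and 0 with other cell markers as covariate; it ran from 0 (without C1) to 14 (without C9) when 1 library was left out, and the count higher from 0 to 1. Over all genes, 933 passed at that level in either direction before any change, 1550 with the library number and 1251 with markers. They numbered 920 with the likelihood ratio test, 1168 without a filter, 656 with only the groups compared and 590 with TRAP libraries only. For susceptible against non-defeated mice, markers as covariate gave a median of 0.294 and 15 adjusted calls. The 5 higher at an unadjusted p became 0 with DESeq2, 3 with RLE size factors, 0 with only the groups compared, 0 with the length and GC offset, 2 with TRAP libraries only, 3 with number, 28 with markers and 13 with TRAP libraries only and no S10, an alternative chosen after seeing the data; leaving out 1 library gave 0 to 17, the most without S10. The count lower, 0, became 2 with the offset, 2 with markers and 1 with TRAP libraries only and no S10. Leaving out 1 library gave 0 to 2 lower. All genes passing in either direction numbered 2835, and 2123 with DESeq2, 2783 with RLE size factors and 1683 with only the groups compared. They numbered 2712 with the offset, 2095 with TRAP libraries only, 2630 with number and 5820 with markers. With TRAP libraries only and no S10 they numbered 2956.

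For susceptible against resilient mice the median of 0.261 was 0.384 with markers and 0.073 within numbers 7 to 11. The 2 adjusted calls became 5 with the likelihood ratio test, 0 with RLE size factors, 0 without a filter, 0 with only the groups compared, 0 with the offset, 0 with TRAP libraries only, 0 with TRAP libraries only and no S10, 12 with number and 29 with markers; leaving out 1 library gave 0 to 22, the most without S10. The count higher at an unadjusted p (26) ran from 11 (without S4) to 29 (without S10) leaving out 1 library and from 19 to 30 in the other settings, and the count lower, 0, became 2 with the offset, number, markers, or TRAP libraries only and no S10, and 0 to 2 leaving out 1 library. Ndufa5 and Ndufb3 passed in 5 of 11 other settings (adjusted p from 0.00812 to 0.150).

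Adjusted calls over all genes between susceptible and resilient mice were 403, and 1099 with the likelihood ratio test, 991 with DESeq2, 126 without a filter, 0 with only the groups compared, 203 with the offset, 1 with TRAP libraries only, 1109 with number and 2892 with markers. Against non-defeated mice they were 8, and 189, 114, 10, 5, 10, 0, 0 and 1839 in the same order. RLE size factors gave 308 and 13, and a minimum of 10 counts in every library gave 542 and 16. The cause of these shifts was not tested.

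Small log2 values of core subunits that passed no test changed sign. In resilient against non-defeated mice, markers gave Ndufs1 -0.0987, Ndufs3 0.0148, Ndufs8 0.00761 and Ndufv1 -0.043, the offset gave Ndufv1 -0.0518, and no filter gave Ndufs3 0.00316. In susceptible against non-defeated mice, the offset gave Ndufs3 -0.0455, Ndufs7 -0.0513 and Ndufv2 -0.0235, number gave Ndufs7 -0.0201, and Ndufs8 became 0.00642 with RLE size factors, 0.00085 without a filter, 0.00384 with at least 10 counts, 0.144 with markers and 0.0787 with TRAP libraries only and no S10. Between outcomes the offset gave Ndufs8 -0.000565. Leaving out 1 library gave, against non-defeated mice, -0.0763 to 0.179 for Ndufs1, -0.0508 to 0.0138 for Ndufs3 and -0.0336 to 0.0742 for Ndufv1 in resilient mice, and -0.0201 to 0.0583 for Ndufs3, -0.0326 to 0.0936 for Ndufs7, -0.0667 to 0.0868 for Ndufs8 and -0.021 to 0.16 for Ndufv2 in susceptible mice. Between outcomes it gave -0.0144 to 0.0838 for Ndufs3 and -0.019 to 0.135 for Ndufs8. Depth limited Ndufa4l2 alone, with 51 to 155 counts per library.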
